A study of Arabidopsis thaliana with 12 samples.

Results

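Histones are the proteins around which nuclear DNA is wrapped. Of the 38288 genes in the deposited table, 52 protein-coding genes were selected because their description contains "Histone superfamily protein" or begins with "histone H" or "histone B". Of these, 44 were histone genes by name and by the protein they encode: 1 H1 gene, 12 H2A genes, 11 H2B genes, 12 H3 genes and 8 H4 genes. The other 8 carry a matching description but encode no histone, and they are described apart. The wording of the descriptions left out a few histone genes, among them 2 of the 3 H1 genes and GAMMA-H2AX, which are also given apart.

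Nucleosomes are built from H2A, H2B, H3 and H4, and H1 binds the DNA between them. In plants as in animals, H3.1 and most H4 are made during S phase and are loaded behind the replication fork by the CAF-1 chaperone, whereas H3.3 is loaded outside S phase, by HIRA among others. H2A comes as canonical H2A and as the variants H2A.X, which is phosphorylated at DNA breaks, H2A.W, which is found in heterochromatin, and H2A.Z, which the SWR1 complex places at gene starts and at genes that respond to the environment.

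The samples were leaves of Arabidopsis thaliana, from the wild type Col and from the mutant chlorella-1, which the labels call a knockout of a long noncoding RNA, and were taken at the ages of 14 d and 26 d. Each of the 4 groups held 3 libraries, 12 in all, made from total RNA after removal of ribosomal RNA. The labels name no treatment, and they do not state whether the libraries of a group came from separate plants, so the p-values measure the spread between these samples, which may be technical. The knockout could not be checked on its target, because no gene in the table or the annotation carries its name.

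Libraries held 45120547 to 70452171 counts, of which nuclear genes took 26.9% to 49.4%, with the 3 highest shares in the 26 d chlorella-1 libraries. The leaf genes RBCS1A and LHCB2.1 were read in every library, although RBCS1A, in counts scaled to the normalised library size (CPM), ranged from 3250.3 to 3786 CPM in Col leaves at 14 d and from 76.2 to 91.4 CPM in chlorella-1 leaves at 26 d. The 44 histone genes took 0.132% to 0.137% of the nuclear counts in Col leaves at 14 d, 0.133% to 0.136% in 14 d chlorella-1, 0.161% to 0.188% in 26 d Col and 0.183% to 0.291% in 26 d chlorella-1, where the lowest library lay within the range of 26 d Col. Their summed CPM at 26 d, 460.0 ± 28.04 in Col and 984 ± 117 in chlorella-1 (SD, n = 3), did not overlap. Rank correlations between libraries of a group were 0.989 or above at 14 d, and those of chlorella-1 at 26 d were 0.929 to 0.971.

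The genes of some histone classes are close copies of each other. Others are less alike, with protein identity within a class down to 29.6% for H2B, 56.7% for H2A.Z and 62.1% for H2A.W. All 8 H4 genes encode 1 identical protein and their coding sequences share 78.8% to 98.1% of bases, and the 5 H3.1 genes likewise encode 1 protein, with 80.3% to 89.5% of coding bases shared. The H3.1 and H3.3 proteins, each of 136 residues, differ at 4 of them. How reads that match several copies were counted is not given in the sources used here. Single genes of classes of close copies, such as H4 and H3.1, are therefore uncertain, and class sums are given beside them.

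Promoters of histone genes carry short conserved elements, and 5 are shown here, each from 250 bases before to 50 bases after the annotated start, because these genes represent the patterns described below: an H3.1 gene and the most abundant H4 gene that fell with age, the most abundant H3.3 gene, and a pair of H2B genes that moved in opposite directions in chlorella-1. Sequences are from RefSeq, build TAIR10.1, read 5′ to 3′ on the strand of the gene. Capitals mark the octamer CGCGGATC or its other strand GATCCGCG, the hexamer ACGTCA or its other strand TGACGT, and 4 spellings of the site of E2F factors (TTTCCCGC, TTTGGCGC, TTTCGCGC and TTTGCCGC, both strands).
AT1G09200, H3.1, chr1:2972285-2972584, minus strand: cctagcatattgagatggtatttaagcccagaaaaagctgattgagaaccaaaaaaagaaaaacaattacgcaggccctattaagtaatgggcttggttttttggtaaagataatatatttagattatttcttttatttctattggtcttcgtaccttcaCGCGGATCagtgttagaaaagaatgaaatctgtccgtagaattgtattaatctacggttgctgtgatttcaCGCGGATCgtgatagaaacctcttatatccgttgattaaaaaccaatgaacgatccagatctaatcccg
AT5G59690, H4, chr5:24051224-24051523, plus strand: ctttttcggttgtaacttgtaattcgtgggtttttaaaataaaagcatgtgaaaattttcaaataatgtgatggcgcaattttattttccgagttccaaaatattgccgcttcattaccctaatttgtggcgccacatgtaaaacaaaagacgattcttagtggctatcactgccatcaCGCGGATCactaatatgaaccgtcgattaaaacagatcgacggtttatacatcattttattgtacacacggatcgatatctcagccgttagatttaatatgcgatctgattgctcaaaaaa
AT4G40040, H3.3, chr4:18558896-18559195, minus strand: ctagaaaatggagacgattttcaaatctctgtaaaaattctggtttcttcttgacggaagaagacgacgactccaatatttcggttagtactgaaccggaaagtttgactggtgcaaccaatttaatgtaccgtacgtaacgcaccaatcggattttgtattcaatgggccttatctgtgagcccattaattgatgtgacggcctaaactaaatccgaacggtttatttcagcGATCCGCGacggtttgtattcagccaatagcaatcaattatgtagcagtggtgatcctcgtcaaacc
AT3G53650, H2B, chr3:19889047-19889346, plus strand: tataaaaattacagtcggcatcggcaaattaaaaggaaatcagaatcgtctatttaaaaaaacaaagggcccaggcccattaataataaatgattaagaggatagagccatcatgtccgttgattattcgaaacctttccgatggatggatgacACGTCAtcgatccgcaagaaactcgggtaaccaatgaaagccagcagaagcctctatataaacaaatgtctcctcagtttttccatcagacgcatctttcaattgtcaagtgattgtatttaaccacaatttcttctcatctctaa
HTB2 (AT5G22880), H2B, chr5:7652665-7652964, minus strand: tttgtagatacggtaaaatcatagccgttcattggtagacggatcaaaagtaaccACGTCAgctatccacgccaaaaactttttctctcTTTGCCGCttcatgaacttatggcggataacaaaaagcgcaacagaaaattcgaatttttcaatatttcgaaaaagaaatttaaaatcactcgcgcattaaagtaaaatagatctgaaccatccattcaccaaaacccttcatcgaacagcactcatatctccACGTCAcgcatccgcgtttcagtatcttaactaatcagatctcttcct
The octamer was found in 0.146% of the promoters of 27443 protein-coding nuclear genes and in 9 of the 44 histone genes (20.5%), namely 3 of 5 H3.1, 2 of 4 canonical H2A, 2 of 8 H4, 1 of 3 H2A.W and 1 of 3 H3.3 genes. The hexamer was in 9.19% of all promoters and in 13 of 44 histone genes (29.5%), and 9 of these were H2B genes, of 11. An E2F spelling was in 1.76% of all promoters and in 3 of 44 histone genes (6.82%). No match overlapped another in the members' promoters. A match is a description of letters and not evidence of binding.

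Of the 52 members, 48 passed the filter on low counts, among them 41 of the 44 histone genes. HTA4 (H2A.Z) had 27 counts, all in 1 chlorella-1 library at 14 d, AT1G08170 (H2B) had at most 4 counts in a library, and AT5G12910 (H3) and the non-histone LEC1 had 0 in all 12. The H3 gene AT1G75600 and the H2B gene AT5G02570 passed the filter through the 26 d chlorella-1 libraries alone, in which they were high, so that group had to differ for them. Both are contained in the counts below and are described without a test. The 4 comparisons between groups share libraries, so their values stand side by side and are not set against each other as separate evidence.

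**Figure D1:**
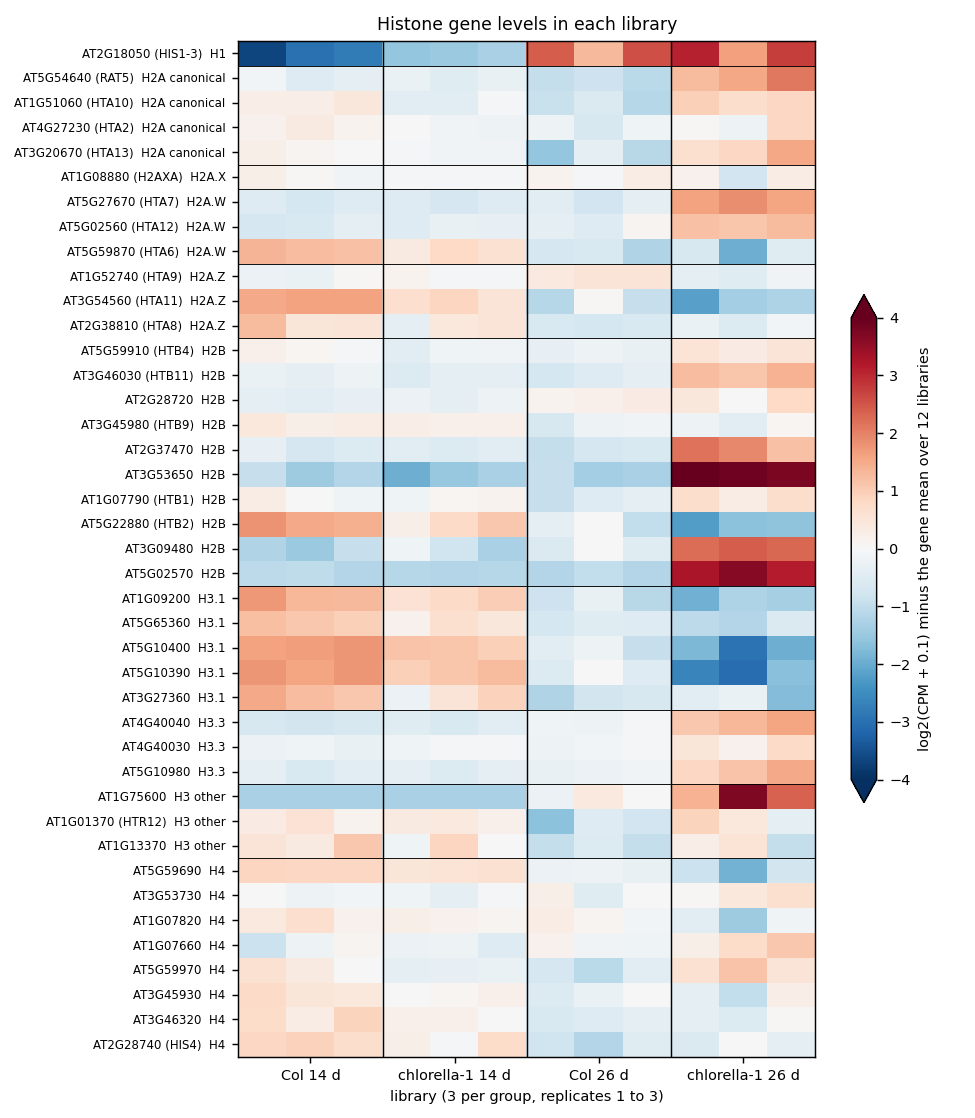
Level of the 41 tested histone genes (rows, by class) in the 12 libraries (columns), as log2(CPM + 0.1) minus the gene's mean over the libraries, red above and blue below. The 5 H3.1 genes were high at 14 d and low at 26 d, and a block of H2A, H2B and H3.3 genes was high in the 3 chlorella-1 libraries at 26 d.

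Between 14 d and 26 d in Col, histone genes fell more often than they rose. Of the 41 tested, 21 fell and 6 rose (edgeR quasi-likelihood test, adjusted p under 0.05), with a median log2 fold change of -0.63 beside 0.01 over all genes. Over all 20398 genes tested, 20.2% fell and 19.3% rose. In a fit on the Col libraries alone, 22 of 38 fell and 6 rose, beside 26.1% and 27.9% of all genes. All 5 H3.1 genes, 5 of 8 H4, 3 of 4 canonical H2A, 3 of 10 H2B, 2 of 3 H2A.Z and 1 of 3 H2A.W genes fell, and 2 of 3 genes in the remaining H3 group. The genes that rose were HIS1-3, AT4G40040 (H3.3), HTA9 (H2A.Z), the H2B genes AT2G28720 and AT3G09480, and AT1G75600.

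In chlorella-1 over the same interval, 21 of the 41 rose and 12 fell, with a median log2 fold change of 0.58 beside -0.11 over all genes. The shares over all genes were 35.2% higher and 36% lower. In a fit on the chlorella-1 libraries alone, 21 of 40 rose and 8 fell, beside 34.3% and 31.4% of all genes. All 5 H3.1 genes again fell, while 8 of 10 H2B, 3 of 3 H3.3, 3 of 4 canonical H2A, 2 of 3 H2A.W and 3 of 8 H4 genes rose. The genes that fell outside H3.1 were HTA6, HTA9, HTA11, HTB2, HTB9 and the H4 genes AT5G59690 and AT1G07820, and the call for HTB9 was lost in 19 of 25 alternatives.

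The difference between genotypes in the age change, tested as an interaction, passed for 19 of 41 histone genes, 16 of them more positive in chlorella-1 and 3 more negative. Over all genes, 21.2% were more positive and 21% more negative. All 4 canonical H2A genes, 7 of 10 H2B, 2 of 3 H2A.W, 2 of 3 H3.3 and 1 of 8 H4 genes were more positive. The more negative ones were HTA9 and the H3.1 genes AT5G10390 and AT5G10400. The call for HTA2, a canonical H2A gene, was lost in 7 of the fits that leave out a library, and that for AT5G10400 in 8 of them, with adjusted p up to 0.0882 and 0.0702.

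**Figure D2:**
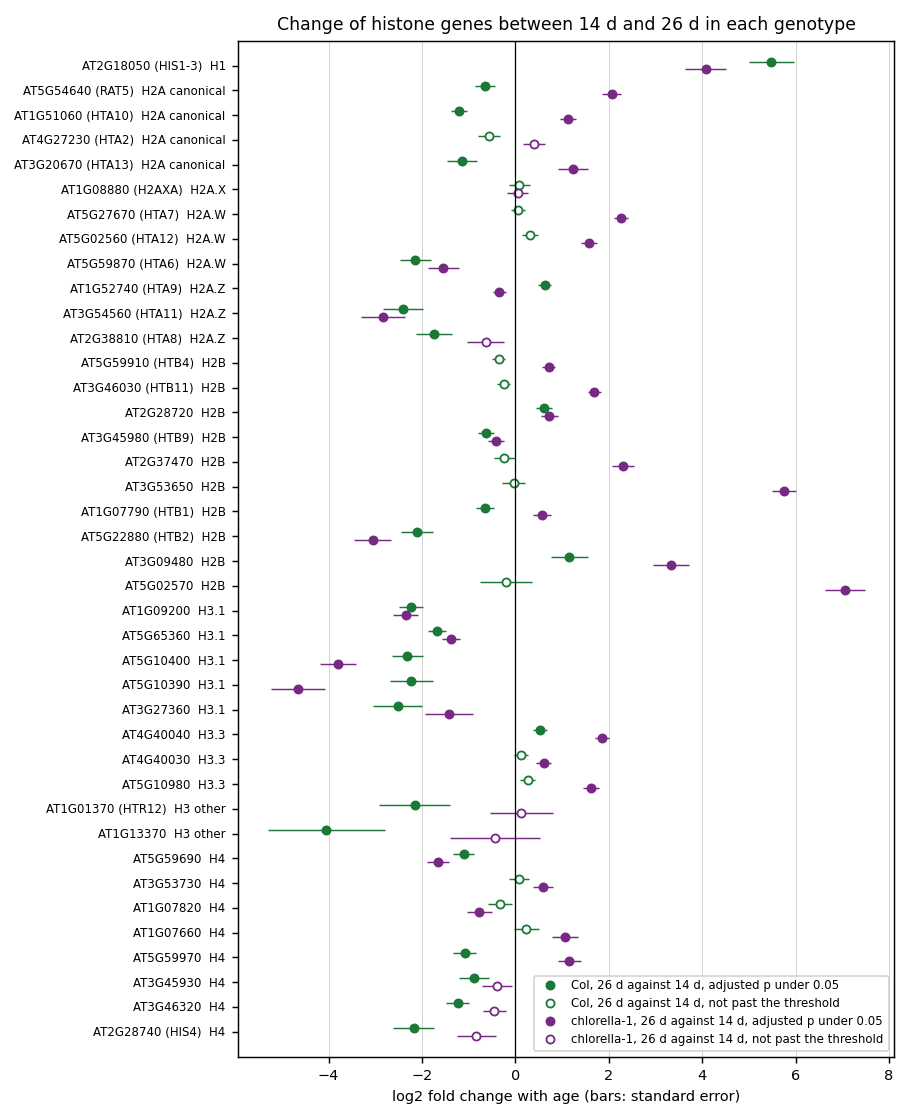
Log2 fold change from 14 d to 26 d with its standard error for 40 tested histone genes, in Col (green) and in chlorella-1 (purple), filled where the adjusted p was under 0.05. AT1G75600 is left out because it had 0 counts at 14 d, and the H3.1 rows lie left of 0 in both genotypes while RAT5, HTA10 and HTA13 lie left in Col and right in chlorella-1.

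Between the genotypes at 26 d, 20 of 41 histone genes were higher and 8 lower in chlorella-1, with a median log2 fold change of 0.62 beside -0.11 over all genes, a median that other size factors moved to 0.02. Over all genes, 31.5% were higher and 31.8% lower. The higher ones were all 4 canonical H2A, all 3 H3.3, 7 of 10 H2B, 2 of 3 H2A.W, 2 of 8 H4 genes, HTR12 and AT1G75600. The lower ones were 3 H3.1, 2 H2A.Z, 2 H4 genes and HTB2. A fit on only the groups compared called 18 higher and 4 lower among 40 tested, beside 28.9% and 22.7% of all genes, and 5 were lower without Col replicate 2 at 26 d. The calls for HTA2 and AT1G07820 were lost in 17 and 15 of 25 alternatives.

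At 14 d no histone gene passed in the fit of all groups (edgeR, 0 of 41, with 9 at an unadjusted p under 0.05), where 0.118% of all genes were higher and 0.0441% lower. A fit on the 14 d libraries alone called 1 of 39 higher and 11 lower, beside 6.4% and 8.19% of all genes, and DESeq2 called 1 higher and 2 lower, beside 0.919% and 0.881%. The 11 were 4 of the 5 H3.1 genes, HTA2 and HTA10, HTA6, HTA11, HTB2 and the H4 genes AT5G59690 and AT5G59970, and the higher one was HIS1-3. The median over the 41 in the fit of all groups was -0.26 on the log2 scale.

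**Figure D3:**
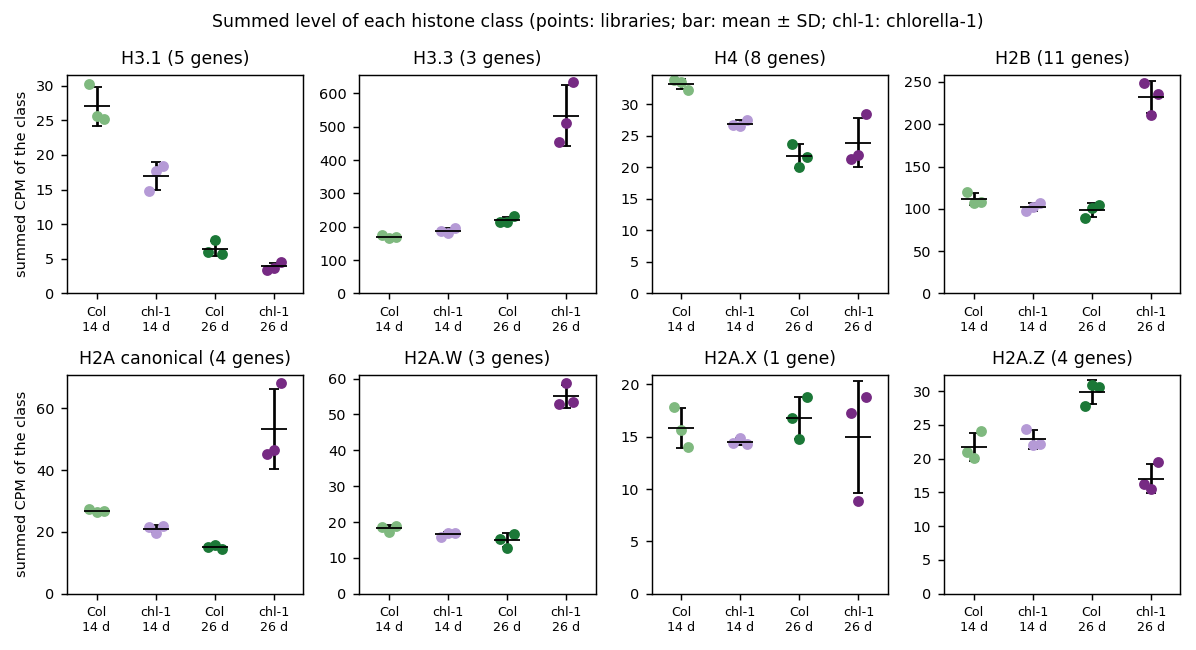
Summed CPM of each histone class in the 12 libraries (points), with the mean and SD per group of 3. The H3.1 sums lay between 25.2 and 30.3 in Col leaves at 14 d and between 3.41 and 4.52 in chlorella-1 leaves at 26 d, while the H3.3, H2B, canonical H2A and H2A.W sums in chlorella-1 leaves at 26 d lay above those of every other library.

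H3.1 is the replication-coupled form of H3. The summed H3.1 level was 27.05 ± 2.805 CPM (SD, n = 3) in Col leaves at 14 d, 16.96 ± 1.97 in chlorella-1 leaves at 14 d, 6.47 ± 1.13 in Col leaves at 26 d and 3.89 ± 0.568 in chlorella-1 leaves at 26 d. No sum of one group overlapped that of another. In bulk leaves, fewer cells in S phase and less H3.1 RNA per cell cannot be told apart.

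AT1G09200 (chr1:2971571-2972334, minus strand, TAIR10.1), the most abundant H3.1 gene, had 13.6, 10.3 and 10.02 CPM in Col leaves at 14 d, 6.05, 6.94 and 8.05 in chlorella-1 leaves at 14 d, 2.23, 3.201 and 1.79 in Col leaves at 26 d and 0.982, 1.62 and 1.53 in chlorella-1 leaves at 26 d. Every 26 d library lay below every 14 d library. It fell with age in Col (log2 fold change -2.23, SE 0.25, edgeR adjusted p = 7.47e-05) and in chlorella-1 (log2 fold change -2.35, SE 0.26, edgeR adjusted p = 8.79e-06). At 26 d it was lower in chlorella-1 (log2 fold change -0.81, SE 0.26, edgeR adjusted p = 0.0168), a call lost with other size factors and in the fit on the groups compared (adjusted p up to 0.27 over the alternatives).

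Among H3.1 genes, the fitted fall with age in chlorella-1 was largest for the neighbours AT5G10390 and AT5G10400 (log2 fold changes -4.66 and -3.79), whereas in Col it was largest for AT3G27360 (-2.52, beside -2.23 and -2.32 for that pair). AT5G10390 had 0.459, 0.715 and 0.476 CPM in Col leaves at 26 d and 0.0302, 0 and 0.155 in chlorella-1, the latter 2, 0 and 9 counts. AT5G10400 had 0.749, 0.885 and 0.492 CPM in Col and 0.227, 0.0457 and 0.1897 in chlorella-1. Both groups were separate for either gene, and the genotype difference at 26 d was -3.04 (SE 0.59, edgeR adjusted p = 0.000911) for AT5G10390 and -2.12 (SE 0.39, edgeR adjusted p = 0.000609) for AT5G10400 on the log2 scale. AT5G65360 and AT3G27360 did not pass at 26 d, with log2 fold change -0.35, SE 0.19, edgeR adjusted p = 0.132 and log2 fold change 0.21, SE 0.54, edgeR adjusted p = 0.742.

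Of the 3 H3.3 genes, all rose with age in chlorella-1, and 1 rose in Col while the other 2 did not pass there. AT4G40040 (chr4:18557149-18558945, minus strand), the histone gene with the highest level per length in each of the 4 groups, had 92.2, 86.5 and 91.3 CPM in Col leaves at 14 d, 103, 94.1 and 105 in chlorella-1 leaves at 14 d, 127, 125 and 137 in Col leaves at 26 d and 302, 363 and 425 in chlorella-1 leaves at 26 d. The groups at the 2 ages did not overlap in either genotype, and the chlorella-1 libraries at 26 d were far above the rest. The rise with age was log2 fold change 0.53, SE 0.15, edgeR adjusted p = 0.0148 in Col, a call lost without Col replicate 2 at 14 d (adjusted p = 0.0613), and log2 fold change 1.85, SE 0.15, edgeR adjusted p = 7.94e-07 in chlorella-1, and the interaction was 1.32 (SE 0.21, edgeR adjusted p = 0.000568).

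AT5G10980 rose in chlorella-1 from 24.9, 22.7 and 25.2 CPM at 14 d to 58.1, 72.8 and 93.6 at 26 d (log2 fold change 1.63, SE 0.17, edgeR adjusted p = 5.43e-06), and its Col values at 26 d were 26.9, 27.8 and 30.2 (change with age in Col log2 fold change 0.26, SE 0.17, edgeR adjusted p = 0.236). AT4G40030 went from 59.6, 63.3 and 64.8 to 93.8, 76.5 and 115 CPM in chlorella-1 (log2 fold change 0.60, SE 0.15, edgeR adjusted p = 0.00383), and in Col its change was log2 fold change 0.12, SE 0.15, edgeR adjusted p = 0.577. The 3 genes share 1 protein among their annotated isoforms.

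Per length, H3.3 genes held 78.5% ± 1.38 (SD, n = 3) of the H3.1 and H3.3 CPM in Col leaves at 14 d, 86.4% ± 1.39 in chlorella-1 leaves at 14 d, 95.1% ± 0.912 in Col leaves at 26 d and 98.7% ± 0.0352 in chlorella-1 leaves at 26 d. The share rose with age in both genotypes, and no library of one group reached the range of another. These are shares of RNA and not of protein.

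**Figure D4:**
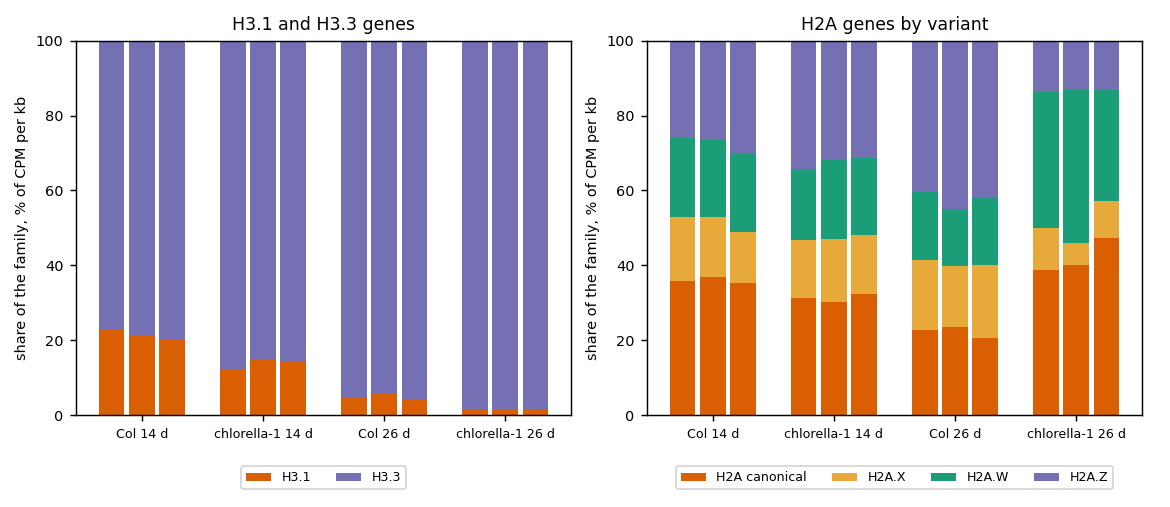
Share of H3.1 and H3.3 genes (left) and of the H2A variants (right) in the summed CPM per kb of each of the 12 libraries, in percent. H3.1 shrank from 20.4% to 23.0% in Col leaves at 14 d to 1.25% to 1.32% in chlorella-1 leaves at 26 d, and H2A.Z was widest in Col leaves at 26 d and narrowest in chlorella-1 leaves at 26 d.

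The remaining H3 genes were rare. HTR12, the centromeric H3, had 0.289, 0.3705 and 0.244 CPM in Col leaves at 14 d, 0, 0.119 and 0.0821 in Col leaves at 26 d and 0.484, 0.3202 and 0.138 in chlorella-1 leaves at 26 d, at most 32 counts a library. At 26 d it was higher in chlorella-1 (log2 fold change 2.22, SE 0.77, edgeR adjusted p = 0.0247), but the call was lost without Col replicate 3 or chlorella-1 replicate 1 at 26 d and in the fit on the groups compared (adjusted p up to 0.256).

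AT1G75600 had 0 counts in all 6 libraries at 14 d, then 7, 13 and 9 counts in the Col libraries and 36, 136 and 67 in those of chlorella-1 at 26 d. Taking 3 counts per group as the floor, this was at least 10.3-fold higher with age in Col and at least 81.9-fold higher in chlorella-1, and the fitted genotype difference at 26 d was 3.32 (SE 0.74) on the log2 scale. AT1G13370 fell with age in Col (log2 fold change -4.05, SE 1.25, edgeR adjusted p = 0.0234), from 13, 10 and 18 counts to 0, 2 and 0.

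The summed H4 level was 33.2 ± 0.805 CPM in Col leaves at 14 d, 26.9 ± 0.531 in chlorella-1 leaves at 14 d, 21.8 ± 1.905 in Col leaves at 26 d and 23.9 ± 3.94 in chlorella-1 leaves at 26 d (SD, n = 3). The 26 d groups overlapped, and the single genes diverged beneath the sum. AT5G59690, the most abundant H4 gene, whose promoter above holds the octamer, had 12.5, 12.2 and 12.2 CPM in Col leaves at 14 d, 5.75, 5.87 and 5.53 in Col leaves at 26 d and 3.67, 1.76 and 4.0001 in chlorella-1 leaves at 26 d.

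AT5G59690 fell with age in both genotypes (log2 fold change -1.10, SE 0.23, edgeR adjusted p = 0.00285 in Col and log2 fold change -1.66, SE 0.23, edgeR adjusted p = 6.1e-05 in chlorella-1). AT5G59970 instead went from 3.66, 3.07 and 2.33 to 1.45, 1.07 and 1.74 CPM in Col and from 1.78, 1.86 and 1.97 to 3.702, 5.398 and 3.41 in chlorella-1. Its fall in Col (log2 fold change -1.09, SE 0.25, edgeR adjusted p = 0.0052) and rise in chlorella-1 (log2 fold change 1.15, SE 0.25, edgeR adjusted p = 0.00139) both passed, as did the interaction of 2.24 (SE 0.35, edgeR adjusted p = 0.000556). Reads of identical or nearly identical copies could move between these rows.

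All 4 canonical H2A genes passed the interaction test. Their sum was 26.9 ± 0.532 CPM in Col leaves at 14 d, 21.1 ± 1.18 in chlorella-1 leaves at 14 d, 15.1 ± 0.544 in Col leaves at 26 d and 53.4 ± 12.8 in chlorella-1 leaves at 26 d (SD, n = 3). RAT5, the H2A gene whose loss makes roots resistant to Agrobacterium transformation, had 7.73, 5.72 and 6.46 CPM in Col leaves at 14 d, 4.22, 4.58 and 3.87 in Col leaves at 26 d, 6.81, 5.83 and 6.67 in chlorella-1 leaves at 14 d and 19.9, 24.5 and 36.1 in chlorella-1 leaves at 26 d.

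RAT5 fell in Col (log2 fold change -0.65, SE 0.21, edgeR adjusted p = 0.0271) and rose in chlorella-1 (log2 fold change 2.06, SE 0.21, edgeR adjusted p = 4.71e-06), with no overlap between the ages in either line. The fall in Col was lost in 4 of the fits that leave out a Col library (adjusted p up to 0.111). HTA10 and HTA13 showed the same pair of directions, with interactions of 2.34 (SE 0.24, edgeR adjusted p = 4.41e-05) and 2.38 (SE 0.46, edgeR adjusted p = 0.00184).

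The H2A variants did not move as 1 group. HTA7, the most abundant H2A.W gene (chr5:9792509-9793560, minus strand), had 8.78, 7.82 and 8.92 CPM in Col leaves at 14 d, 9.45, 7.37 and 9.701 in Col leaves at 26 d, 8.88, 7.99 and 8.81 in chlorella-1 leaves at 14 d and 38.7, 46.001 and 38.1 in chlorella-1 leaves at 26 d. Only the last group stood apart, and the rise with age in chlorella-1 was log2 fold change 2.26, SE 0.15, edgeR adjusted p = 1.51e-07, against log2 fold change 0.06, SE 0.14, edgeR adjusted p = 0.789 in Col.

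HTA12, another H2A.W gene, rose in chlorella-1 from 3.87, 4.58 and 4.44 to 12.6, 12.2 and 13.7 CPM (log2 fold change 1.58, SE 0.18, edgeR adjusted p = 9.69e-06). HTA6, the third H2A.W gene, fell in both genotypes, from 6.41, 5.81 and 5.51 to 1.47, 1.55 and 1.001 CPM in Col and from 3.12, 4.27 and 3.76 to 1.53, 0.549 and 1.71 CPM in chlorella-1. Its changes were log2 fold change -2.14, SE 0.33, edgeR adjusted p = 0.000527 and log2 fold change -1.54, SE 0.33, edgeR adjusted p = 0.0014.

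HTA9, the most abundant H2A.Z gene (chr1:19645236-19646485, plus strand), had 17.7, 17.4 and 21.3 CPM in Col leaves at 14 d, 23.1, 20.1 and 20.04 in chlorella-1 leaves at 14 d, 27.2, 30.1 and 30.1 in Col leaves at 26 d and 15.8, 14.96 and 18.9 in chlorella-1 leaves at 26 d. The 26 d libraries of Col were the highest of the 12, and those of chlorella-1 at 26 d lay below them and overlapped Col leaves at 14 d. The genotypes differed at 26 d (log2 fold change -0.82, SE 0.14, edgeR adjusted p = 0.000373). It rose with age in Col (log2 fold change 0.63, SE 0.14, edgeR adjusted p = 0.00394). Its fall in chlorella-1 (log2 fold change -0.35, SE 0.14, edgeR adjusted p = 0.0397) was lost in 18 of 25 alternatives, with adjusted p up to 0.317, and the interaction was -0.98 (SE 0.20, edgeR adjusted p = 0.00229).

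HTA11, a second H2A.Z gene, fell with age in both genotypes, from 1.94, 2.07 and 2.07 to 0.229, 0.647 and 0.279 CPM in Col and from 1.05, 1.204 and 0.921 to 0.0604, 0.183 and 0.207 in chlorella-1, where 4, 8 and 12 counts were read at 26 d. The falls were log2 fold change -2.40, SE 0.43, edgeR adjusted p = 0.00121 and log2 fold change -2.84, SE 0.47, edgeR adjusted p = 0.000225. HTA8 fell in Col (log2 fold change -1.74, SE 0.39, edgeR adjusted p = 0.00461) and gave log2 fold change -0.64, SE 0.39, edgeR adjusted p = 0.159 in chlorella-1. The share of H2A.Z in the selected H2A genes per length was 27.5% ± 2.33 in Col and 32.5% ± 1.45 in chlorella-1 leaves at 14 d. At 26 d the share was 42.4% ± 2.26 in Col and 13.3% ± 0.296 in chlorella-1, with no overlap between groups. The summed H2A.Z level was 21.7 ± 2.11 CPM in Col and 22.9 ± 1.38 in chlorella-1 leaves at 14 d (SD, n = 3). It was 29.8 ± 1.77 in Col and 17.1 ± 2.17 in chlorella-1 leaves at 26 d. With age in chlorella-1 this sum changed 0.746-fold, while those of canonical H2A and H2A.W changed 2.53-fold and 3.32-fold, which also lowers the share.

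H2AXA, the H2A.X gene that the descriptions caught, did not pass in any comparison. Its levels were 17.8, 15.6 and 13.97 CPM in Col leaves at 14 d, 16.8, 14.8 and 18.8 in Col leaves at 26 d and 17.3, 8.898 and 18.8 in chlorella-1 leaves at 26 d. All groups overlapped.

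H2B genes moved in both directions. AT3G53650 (chr3:19889297-19890251, plus strand), whose promoter is shown above, had 0.963, 0.652 and 0.784 CPM in Col leaves at 14 d, 0.948, 0.681 and 0.706 in Col leaves at 26 d, 0.4102, 0.594 and 0.718 in chlorella-1 leaves at 14 d and 36.97, 29.5 and 26.98 in chlorella-1 leaves at 26 d. The last group stood far above the rest, and no other library reached 1 CPM. The genotypes differed at 26 d by log2 fold change 5.32, SE 0.25, edgeR adjusted p = 1.84e-07, the age change in chlorella-1 was log2 fold change 5.76, SE 0.26, edgeR adjusted p = 2.31e-08, and in Col it was log2 fold change -0.04, SE 0.24, edgeR adjusted p = 0.919.

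AT5G02570 (chr5:576655-577176, minus strand) had 1 or 2 counts in each of the 9 libraries outside chlorella-1 at 26 d, and 160, 138 and 128 there. Its fitted change with age in chlorella-1 was 7.06 (SE 0.42) on the log2 scale. The gene overlaps HTA12 on the opposite strand, and HTA12 rose in the same libraries. HTA12 had 217 to 368 counts in the 9 libraries outside chlorella-1 at 26 d, and 833, 534 and 795 there. The strand setting of the counting is not given in the sources used here. Whether reads of either gene were counted for the other is therefore not known and was not tested. The same limit holds for HTA9, HTA13 and HTB9, which overlap AT1G52750, AT3G20680 and AT3G45970 on the opposite strand. The H3.1 gene AT3G27360 overlaps AT3G27380 on the same strand. AT3G09480 went from 0.482, 0.273 and 0.166 CPM to 2.93, 3.34 and 3.09 in chlorella-1 (log2 fold change 3.34, SE 0.38, edgeR adjusted p = 1.13e-05).

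Among the abundant H2B genes, HTB4 had 24.6, 26.8 and 25.1 CPM in Col and 45.1, 39.001 and 44.8 in chlorella-1 leaves at 26 d (log2 fold change 0.75, SE 0.14, edgeR adjusted p = 0.000596). HTB11 had 14.5, 16.6 and 18.02 CPM in Col and 55.6, 51.5 and 62.9 in chlorella-1 leaves at 26 d (log2 fold change 1.79, SE 0.14, edgeR adjusted p = 1.47e-06), and AT2G37470 had 5.15, 6.299 and 6.52 and 45.7, 38.7 and 22.7 (log2 fold change 2.57, SE 0.23, edgeR adjusted p = 4.12e-06). In each of the 3, the chlorella-1 libraries at 26 d were the highest of all 12.

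HTB2, the other H2B promoter shown above, went the opposite way, with 3.51, 2.85 and 2.65 CPM in Col leaves at 14 d, 0.703, 0.953 and 0.427 in Col leaves at 26 d, 1.12, 1.65 and 2.09999 in chlorella-1 leaves at 14 d and 0.121, 0.229 and 0.241 in chlorella-1 leaves at 26 d. It fell in Col (log2 fold change -2.11, SE 0.35, edgeR adjusted p = 0.000727) and in chlorella-1 (log2 fold change -3.05, SE 0.39, edgeR adjusted p = 2.86e-05), and the groups at the 2 ages did not overlap. The H2B sum was 111 ± 7.04 CPM in Col leaves at 14 d, 102 ± 4.89 in chlorella-1 leaves at 14 d, 98.4 ± 8.02 in Col leaves at 26 d and 232 ± 18.8 in chlorella-1 leaves at 26 d (SD, n = 3).

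HIS1-3 (chr2:7845923-7847031, plus strand), a linker histone known to be induced by drought, had the steepest rise with age in Col among histone genes read at both ages. It had 0.523, 0.919 and 1.05 CPM in Col leaves at 14 d, 2.66, 2.76 and 3.19 in chlorella-1 leaves at 14 d, 43.2, 19.4 and 47.98 in Col leaves at 26 d and 66.8, 24.6 and 54.2 in chlorella-1 leaves at 26 d. All 26 d libraries lay above all 14 d libraries, the 14 d groups did not overlap and the 26 d groups did.

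The rise of HIS1-3 was log2 fold change 5.48, SE 0.48, edgeR adjusted p = 1.63e-05 in Col and log2 fold change 4.08, SE 0.44, edgeR adjusted p = 6.72e-06 in chlorella-1. The genotype difference at 14 d was log2 fold change 1.80, SE 0.43, edgeR adjusted p = 0.157 in the fit of all groups, and 1.80 with SE 0.23 and edgeR adjusted p = 0.000493 in the fit on the 14 d libraries, and that at 26 d was log2 fold change 0.40, SE 0.38, edgeR adjusted p = 0.381. The interaction, -1.40 (SE 0.57, edgeR adjusted p = 0.0684), did not pass.

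Of the histone genes that the descriptions left out, the H1 gene AT1G06760 had 60.5, 61.5 and 67.7 CPM in Col and 93.7, 94.8 and 135 in chlorella-1 leaves at 26 d (log2 fold change 0.77, SE 0.16, edgeR adjusted p = 0.00166), and the H1 gene AT2G30620 gave log2 fold change -0.43, SE 0.26, edgeR adjusted p = 0.165. GAMMA-H2AX was lower in chlorella-1 leaves at 26 d (log2 fold change -0.87, SE 0.33, edgeR adjusted p = 0.0384). MGH3, the sperm cell H3, had 6, 2 and 11 counts in chlorella-1 leaves at 26 d and 0 in the other 9 libraries, and it did not pass the filter on low counts.

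Of the 8 members that are no histones, 7 were tested. Among them 2 were higher and 2 lower in chlorella-1 leaves at 26 d, beside 31.5% and 31.8% of all genes, which are near shares. AT5G19490, described as a histone superfamily protein, had 0.367, 0.647 and 0.657 CPM in Col and 4.31, 5.15 and 5.66 in chlorella-1 (log2 fold change 3.18, SE 0.37, edgeR adjusted p = 2.62e-05), and it overlaps AT5G19485 on the same strand. AT1G77660, described as an H3 K4 methyltransferase of the SET7/9 family, rose in Col from 1.39, 1.097 and 0.976 to 4.76, 4.99 and 4.23 CPM (log2 fold change 2.01, SE 0.27, edgeR adjusted p = 0.000212) and gave log2 fold change 0.37, SE 0.27, edgeR adjusted p = 0.234 in chlorella-1. AT1G21920 of the same family rose in both genotypes, by log2 fold change 1.64, SE 0.19, edgeR adjusted p = 8.57e-05 in Col and log2 fold change 1.49, SE 0.19, edgeR adjusted p = 2.69e-05 in chlorella-1.

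Genes that handle histones were read as a list of 19 chaperones and assembly factors. At 26 d, 4 were higher and 6 lower in chlorella-1, with a median log2 fold change of 0.00, beside 31.5% and 31.8% of all genes. The 6 lower are a share near that of all genes. A fit on only the groups compared called 2 of 18 higher and 3 lower, beside 28.9% and 22.7%. NAP1;1, an H2A and H2B chaperone, had 14.5, 12.4 and 13.8 CPM in Col and 6.87, 6.02 and 4.64 in chlorella-1 (log2 fold change -1.21, SE 0.16, edgeR adjusted p = 5.02e-05), and NAP1;3 was also lower (log2 fold change -1.35, SE 0.21, edgeR adjusted p = 0.000197). SPT16, a subunit of the FACT complex, was higher (log2 fold change 1.02, SE 0.16, edgeR adjusted p = 0.000189).

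The CAF-1 subunit FAS1 was lower in chlorella-1 leaves at 26 d (log2 fold change -1.67, SE 0.61, edgeR adjusted p = 0.0326) and the subunit FAS2 gave log2 fold change -1.42, SE 0.72, edgeR adjusted p = 0.102. ASF1B fell with age in chlorella-1 (log2 fold change -2.18, SE 0.36, edgeR adjusted p = 0.000182). With age, 3 of the 19 rose and 2 fell in Col, where DDM1, a remodeller of heterochromatin, fell (log2 fold change -2.31, SE 0.49, edgeR adjusted p = 0.00334), beside 19.3% and 20.2% of all genes. In chlorella-1, 6 rose and 7 fell, beside 35.2% and 36%.

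Genes of DNA replication also fell with age. Of the 15 genes listed, 13 fell in Col and none rose (median log2 fold change -2.40), beside 20.2% and 19.3% of all genes. In chlorella-1, 12 fell and 1 rose (median -3.20), beside 36% and 35.2%. At 26 d, 10 were lower and 1 higher in chlorella-1 (median -1.72), beside 31.8% and 31.5%. A fit on only the groups compared called 7 of 13 lower and 1 higher, beside 22.7% and 28.9%. The summed level of the 15 did not show this difference at 26 d, with 18.3 ± 2.67 CPM in Col and 19.1 ± 1.42 in chlorella-1 (SD, n = 3) and overlapping groups. The higher gene, RNR2A, a ribonucleotide reductase subunit, made up most of that sum in chlorella-1, with 6.41, 6.79 and 8.6997 CPM in Col and 12.3, 15.01 and 15.1 in chlorella-1. RNR1, the partner subunit, had 7.18, 5.99 and 6.29 CPM in Col leaves at 14 d, 1.64, 1.97 and 2.25 in Col leaves at 26 d and 0.589, 0.366 and 0.345 in chlorella-1 leaves at 26 d (log2 fold change -2.15, SE 0.23, edgeR adjusted p = 1.28e-05). MCM6, a helicase subunit, had 0 counts in chlorella-1 leaves at 26 d, at least 13.6-fold lower than Col, and CDC6A, which loads the helicase, was lower too (log2 fold change -5.86, SE 0.70, edgeR adjusted p = 2.8e-05).

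The cell cycle list, of which 15 of 18 genes were tested, fell with age in Col as well, with 10 lower and none higher (median -2.92), beside 20.2% and 19.3% of all genes. With age in chlorella-1, 7 of its genes fell and 3 rose (median -0.31), beside 36% and 35.2%. At 26 d, 9 of its genes were higher and 1 lower in chlorella-1 than in Col (median 1.36), beside 31.5% and 31.8%. E2FB (log2 fold change 1.52, SE 0.21, edgeR adjusted p = 8.51e-05) and E2FC (log2 fold change 1.74, SE 0.27, edgeR adjusted p = 0.000202), transcription factors of the cell cycle, were among the higher ones. AUR2, a mitotic kinase, had 0 counts in Col leaves at 26 d and was at least 31.6-fold higher in chlorella-1. These medians are the same with genes at 0 counts in a group put at their bound. For this list at 26 d, a fit on only the groups compared called 6 of 10 genes tested higher and 0 lower, beside 28.9% and 22.7% of all genes. The list mixes regulators with mitotic genes, so its counts are no measure of dividing cells.

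**Figure D5:**
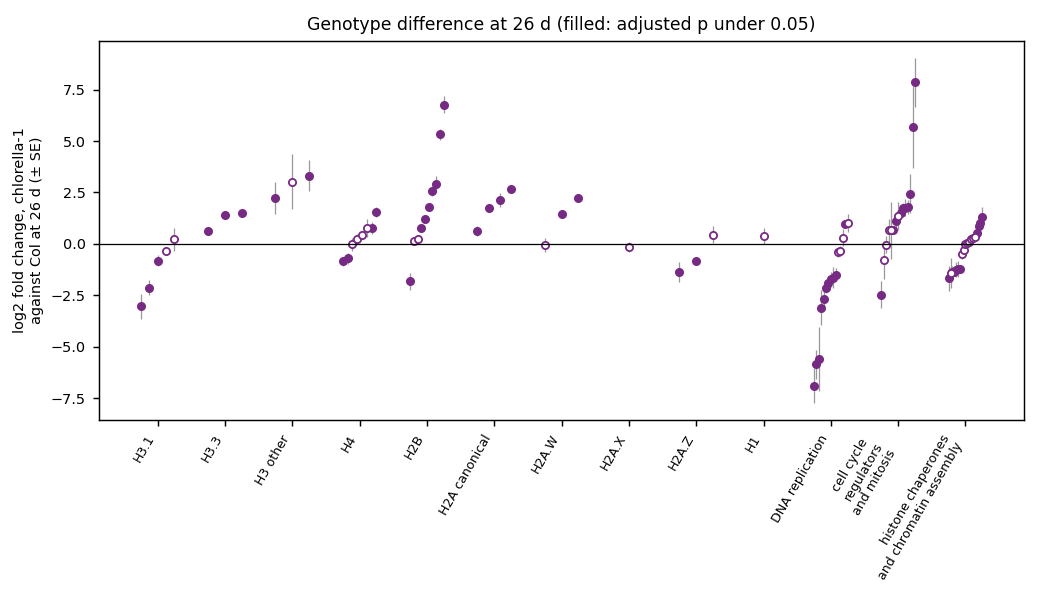
Log2 fold change of chlorella-1 against Col at 26 d with its standard error, for each tested gene of the histone classes and of 3 related lists, filled where the adjusted p was under 0.05. H3.1 and DNA replication genes lie mostly below 0, and H3.3, H2B and canonical H2A genes mostly above, while genes with 0 counts in a whole group carry a fitted value that is no bound.

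Markers of other cells also moved in the 26 d chlorella-1 libraries. All 6 leaf mesophyll genes were lower there than in Col leaves at 26 d (median log2 fold change -3.52), beside 31.8% of all genes. All 6 also fell with age in both genotypes. Their median was -2.28 in Col, where 20.2% of all genes fell, and -5.03 in chlorella-1, where 36% fell. Of 7 pollen and male germline genes, 4 passed the filter on low counts, through the 26 d chlorella-1 libraries alone. That group therefore had to differ for them, and they are described without a test. VGD1 had 2151, 326 and 1831 counts there, beside 0, 10 and 0 in 26 d Col and 0 in all 6 libraries at 14 d. VGDH1, AGP6 and AGP11 were the others. DUO1 and GCS1, which mark the male germline, had 0 counts in all 12, and GEX2 had 6 counts in 1 Col library. Of the floral organ genes, 4 of 5 were tested and none passed between genotypes at 26 d, beside 31.5% of all genes higher and 31.8% lower. A fit on only the groups compared called 1 of 3 higher, beside 28.9% of all genes. The summed level of the 5 was 1.11 ± 0.242 CPM in Col and 2.25 ± 0.456 in chlorella-1 leaves at 26 d (SD, n = 3), without overlap. The shoot meristem genes STM, WUS and CLV3 had 0 counts in all 12, and KNAT1 had 4 in 1 library. Of the 2 guard cell genes, FAMA, a guard cell factor, had 1.94, 1.63 and 1.81 CPM in Col and 6.27, 6.86 and 5.57 in chlorella-1 leaves at 26 d. MYB60, the other, had 0.581, 0.8002 and 0.591 and 0.907, 0.412 and 0.603 CPM and did not pass (log2 fold change -0.02, SE 0.31, edgeR adjusted p = 0.96), and it fell with age in both genotypes. The part of these cells in the histone values was not tested.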

How the data were processed

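Leaf RNA of 12 libraries, 3 in each of 4 groups, was analysed from the authors' deposited table of whole-number read counts per gene. The build TAIR10 and the tools HTSeq, STAR, StringTie, DESeq2 and HISAT2 are named, per the submitters' processing notes, but their roles, versions and the strand setting are not given in the sources used here. The authors' 12 deposited FPKM columns were not used, as counts fit the test, and 3 of them carry no replicate number and match no single sample. Another 50 rows name no gene (0.0771% to 0.216% of counts) and were left out. Loci, overlaps and promoters came from RefSeq TAIR10.1.

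Tests used edgeR 4.0.16 (R 4.3.3) on the counts: filterByExpr, TMM scaling, 1 quasi-likelihood model with a term per group over all libraries, two-sided tests, and Benjamini-Hochberg adjustment over 20398 genes with a threshold of 0.05. The test was checked on simulated data. DESeq2 1.42.0, other scalings and filters, fits on the groups compared, a replicate block and fits without each library were alternatives. For 0 counts over a group, folds are bounds against 3 counts over that group, which covers counting error only. Class sums were not tested.

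The members and gene lists were chosen with earlier results of these data known. Named were the 4 largest and 4 smallest log2 fold changes among called members per comparison, the gene with the highest mean CPM in each class, a set of variant genes and HIS1-3, and up to 3 genes with the smallest p per related list. The names HTR4, HTR5 and HTR8 of that set do not occur in the table or annotation, and the 3 H3.3 genes are given by locus. Further members are named to account for each class, a choice made after their values were seen. Fits that use only the groups compared with 1 library left out were also added after the data were seen.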

Additional observations from a re-analysis of the deposited data

Results flagged for a closer look

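The age change differed between the genotypes, by the interaction test, for 21 of the 48 members tested. Of these, 17 were more positive and 4 more negative in chlorella-1, beside 21.2% and 21% of all genes in those directions. Values are log2 differences, the change in chlorella-1 minus the change in Col. Among H2B genes these were 7.26 for AT5G02570, 5.80 for AT3G53650, 2.54 for AT2G37470, 2.18 for AT3G09480, 1.94 for HTB11 (AT3G46030), 1.23 for HTB1 (AT1G07790) and 1.07 for HTB4 (AT5G59910). AT5G02570 passed the filter on low counts through the 26 d chlorella-1 libraries alone, so its value is a description. Among canonical H2A genes they were 2.71 for RAT5 (AT5G54640), 2.38 for HTA13 (AT3G20670), 2.34 for HTA10 (AT1G51060) and 0.97 for HTA2 (AT4G27230).

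The H2A.W genes HTA7 (AT5G27670) and HTA12 (AT5G02560) differed by 2.20 and 1.27, and the H2A.Z gene HTA9 (AT1G52740) by -0.98. For H3.3 the differences were 1.36 for AT5G10980 and 1.32 for AT4G40040, and for H3.1 they were -2.43 for AT5G10390 and -1.48 for AT5G10400. The H4 gene AT5G59970 differed by 2.24. The non-histone members AT5G19490 and AT1G77660 differed by 3.38 and -1.64. The 26 d chlorella-1 libraries, which enter each of these differences, were also those in which the leaf and pollen markers given above moved, and the part of those cells was not tested.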

How the results depend on the processing

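No direction of a called histone gene was reversed in any alternative. In every alternative run, 17 of 28 calls held between genotypes at 26 d, 17 of 27 for age in Col, 23 of 33 for age in chlorella-1 and 17 of 19 for the interaction. At 14 d, where the fit of all groups called 0, a total of 14 histone genes passed in some alternative. The fit on the 14 d libraries called 2 of the 52 members higher and 11 lower (1 and 11 of the histone genes), and DESeq2 called 1 higher and 2 lower. Leaving out a library gave 0 to 1 higher, the 1 without chlorella-1 replicate 2 at 26 d, and 0 lower. With a library left out of the fit on the 14 d groups, 2 members (1 histone gene) were higher and 6 to 11 lower.

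At 26 d the fit on the groups compared called 6 members lower (4 histone genes) in place of 10 (8). Without 1 library, 7 to 11 members and 5 to 9 histone genes were lower, and in the fit on the groups compared 2 to 7 and 1 to 5. For age in Col, 5 to 9 members and 3 to 6 histone genes rose with 1 library left out, the lowest without Col replicate 2 at 14 d, and 6 to 7 and 4 to 5 in the fit on the Col groups. For age in chlorella-1, 8 histone genes fell in the fit on its groups in place of 12, and 7 to 10 with 1 of its libraries left out, the lowest without replicate 2 at 14 d. The cause was not tested. DESeq2 size factors moved the H2A.W sum with age in chlorella-1 from 1.73 to 1.87 on the log2 scale.

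The labels do not say whether replicate numbers pair samples. Residual r was -0.131 to 0.146 between libraries of the same number and -0.144 to 0.109 between those of different numbers. With 3 libraries per group, these values cannot decide whether the numbers pair samples. With the replicate block, the members called higher and lower were 0 and 0 at 14 d, 21 and 9 at 26 d, 7 and 20 for age in Col, 25 and 12 for age in chlorella-1 and 17 and 4 for the interaction, and for the histone genes 19 and 7, 5 and 20, 21 and 12, and 16 and 2 in the last 4. Low counts limit the rare genes, since at 26 d the libraries held 0 to 9 counts of AT1G13370, 0 to 32 of HTR12, 4 to 38 of HTA11 and 0 to 42 of AT5G10390.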
